A study of Lathyrus oleraceus with 4 samples.

Results

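Photosystems capture light in the thylakoid membranes of chloroplasts and drive electron transport. Pigment-binding light harvesting proteins, encoded in the nucleus, surround photosystem II and photosystem I and pass excitation energy to the reaction centers. Green embryos of legumes hold such chloroplasts, and photosynthesis in the seed is known as a source of oxygen and energy during filling. The unigenes (assembled transcript sequences) described here are 4 of the 77269 in the expression table, chosen by their annotation with earlier results of these data known. They are comp40423_c1_seq2 (light harvesting chlorophyll a/b binding protein), comp13040_c0_seq1 (photosystem II light harvesting complex gene 2.1), comp12625_c0_seq1 (photosystem I subunit H2) and comp12834_c0_seq1 (photosystem II reaction center protein A). All 4 had reads in every library, so none was lost to a filter on low values.

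The RNA came from whole seeds of field-grown pea. Zhewan 1, a vegetable pea, and Zhongwan 6, a grain pea, were each sampled at 10 days after pollination (DAP), an early stage, and at 25 DAP, the harvest stage of vegetable pea, which gave 4 libraries of oligo(dT)-selected mRNA, 1 per cultivar and stage. Each library was made from seeds of many plants pooled together, and how the biological replicates entered it is not stated. The intervals and Fisher tests below therefore cover counting error between libraries only. Tests with an assumed spread, or with a spread taken from the cultivars, are named where given. Each cultivar stands for its pea type alone. Seed tissue is a mixture, and in it fewer cells of a type and less RNA per cell cannot be told apart. Counted reads ranged from 50086351 to 70912839 per library, which exceeds the clean reads, so reads were counted on more than 1 sequence. Of 7 seed maturation markers listed, 6 were in the table and had reads in every library. Their summed level was 519 and 1948 RPKM (reads per kilobase of unigene, scaled to the library's counted reads) in Zhewan 1 at 10 and 25 DAP, and 222 and 2580 RPKM in Zhongwan 6. Most of this sum was the granule-bound starch synthase 1 unigene (280 and 1533 RPKM in Zhewan 1, 52.0 and 2165 RPKM in Zhongwan 6), and the markers did not move together. By the call rule given with the comparisons, 2 were higher and 2 lower at 25 DAP in Zhewan 1. Those higher were the starch synthase unigene and the FUS3 unigene (9.47 and 211 RPKM). The oleosin unigene fell from 14.2 to 6.08 RPKM and the caleosin-related unigene from 35.7 to 16 RPKM. In Zhongwan 6, 3 were higher and 1, the RmlC-like cupin unigene (19.8 and 9.68 RPKM), was lower, or 4 and 0 with the libraries scaled by median ratios. Of all unigenes tested, 20.7% were called higher and 9.42% lower in Zhewan 1, and 9.08% and 16.0% in Zhongwan 6. Of 7 vascular and pod wall markers, 6 were in the table, 1 or 2 of them at 0 in each library. Their summed level lay between 6.41 and 8.21 RPKM in 3 libraries and was 19.2 RPKM in Zhongwan 6 at 10 DAP. Most of each sum was the phloem protein 2-A12 unigene (6.30 and 6.06 RPKM in Zhewan 1, 17.1 and 5.03 in Zhongwan 6). These markers did not move together either. By stage 2 were called higher and 0 lower in Zhewan 1, and 1 higher and 2 lower in Zhongwan 6. With median-ratio scaling the Zhongwan 6 calls were 2 and 2.

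In both cultivars the levels of comp13040_c0_seq1 and comp12625_c0_seq1, one unigene of the photosystem II antenna and one of photosystem I, were several-fold higher at 25 DAP than at 10 DAP. The chlorophyll a/b binding unigene comp40423_c1_seq2 was higher at 25 DAP in Zhewan 1, while in Zhongwan 6 its change was not called. The reaction center unigene comp12834_c0_seq1 did not pass the call rule by stage in either cultivar. The summed level of the 4 unigenes was 32.6 RPKM at 10 DAP and 599.6 RPKM at 25 DAP in Zhewan 1, against 27.3 and 164.6 RPKM in Zhongwan 6. The largest part at 25 DAP was comp13040_c0_seq1, with 474 RPKM in Zhewan 1 and 87.6 RPKM in Zhongwan 6.

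**Figure D1:**
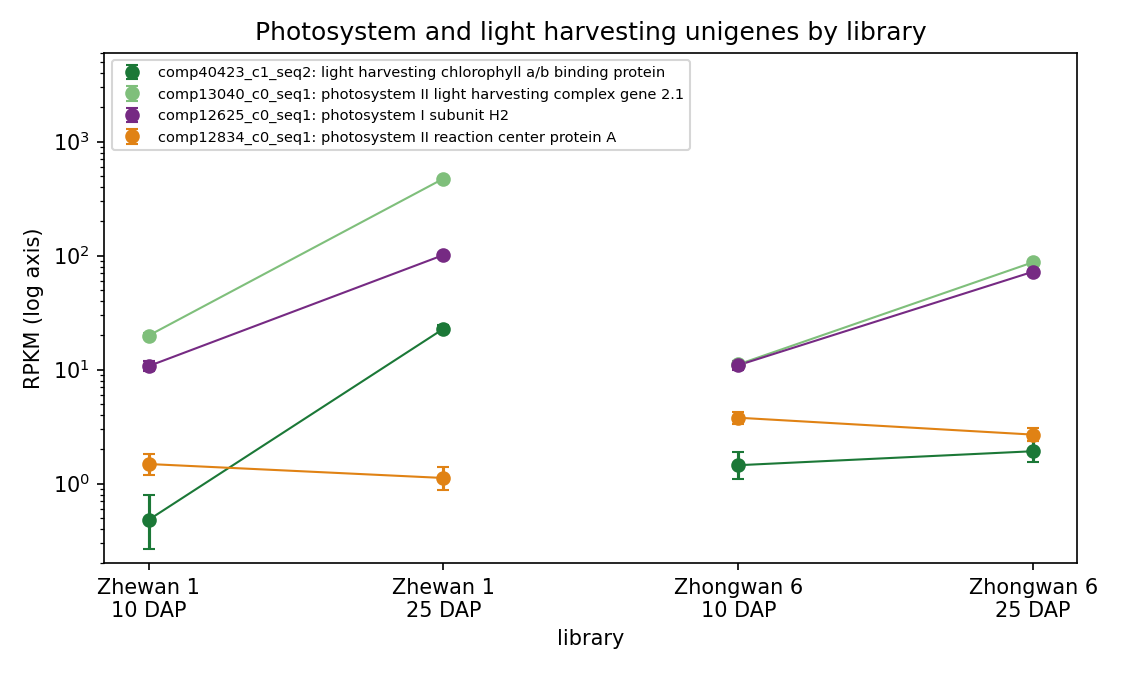
RPKM of the 4 unigenes (log axis) in each of the 4 libraries; points are single libraries, bars are exact 95% counting intervals and lines join the stages of a cultivar. Of the 4 lines for Zhewan 1, 3 rise steeply, and comp12834_c0_seq1 stays between 1.12 and 1.49 RPKM.

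The gene annotated as photosystem II light harvesting complex gene 2.1 encodes, in Arabidopsis, a subunit of the trimeric antenna that feeds photosystem II. The unigene comp13040_c0_seq1 (1161 bp) went from 1157 reads (19.9 RPKM) at 10 DAP to 30737 reads (474 RPKM) at 25 DAP in Zhewan 1. The Zhongwan 6 libraries held 786 reads (11.1 RPKM) and 7216 reads (87.6 RPKM). It was the highest of the 4 unigenes in every library, and at 25 DAP in Zhewan 1 it ranked 124 among all unigenes by RPKM, against 680 in Zhongwan 6. The stage ratio was 23.8 (exact 95% interval 22.5 to 25.3) in Zhewan 1 and 7.88 (7.32 to 8.49) in Zhongwan 6.

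Subunit H of photosystem I is, in Arabidopsis, a small nuclear-encoded protein needed for docking of the photosystem II antenna to photosystem I. Its unigene comp12625_c0_seq1 (649 bp) was counted in Zhewan 1 with 349 reads (10.7 RPKM) at the early stage and 3671 reads (101 RPKM) at the later one. In Zhongwan 6 the reads were 432 (10.9 RPKM) and 3331 (72.4 RPKM). Both 25 DAP libraries therefore lay above both 10 DAP libraries, as they did for comp13040_c0_seq1, and the pair of 10 DAP libraries was nearly level. The stage ratio was 9.44 (8.45 to 10.6) in Zhewan 1 and 6.62 (5.98 to 7.33) in Zhongwan 6.

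Chlorophyll a/b binding proteins carry most of the antenna pigment of plants and come from a large gene family. The unigene comp40423_c1_seq2 (623 bp) was counted in Zhewan 1 with 15 reads (0.481 RPKM) at 10 DAP, but with 794 reads (22.8 RPKM) at 25 DAP. In Zhongwan 6 it had 55 reads (1.45 RPKM) and 85 reads (1.92 RPKM). The Zhewan 1 library at 25 DAP thus stood apart from the other 3, which all lay under 2 RPKM. The stage ratio was 47.5 (28.6 to 85.3) in Zhewan 1 and 1.33 (0.934 to 1.90) in Zhongwan 6, where the adjusted p of Fisher's exact test was 0.172.

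Photosystem II reaction center protein A is the product of psbA, a gene that land plants carry in the plastid genome, and forms the core of the reaction center with its partner protein. Plastid mRNAs carry no stable poly(A) tail, so a level in oligo(dT)-selected mRNA is not a measure of their total level. The unigene comp12834_c0_seq1 (1263 bp) had 94 reads (1.49 RPKM) and 79 reads (1.12 RPKM) in Zhewan 1 at 10 and 25 DAP, and 291 reads (3.79 RPKM) and 241 reads (2.69 RPKM) in Zhongwan 6. Both Zhongwan 6 libraries lay above both Zhewan 1 libraries. The stage ratio was 0.754 (0.552 to 1.03) in Zhewan 1 and 0.711 (0.597 to 0.846) in Zhongwan 6, where the interval lay below 1 but the ratio was less than 2-fold.

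A unigene was called when the Benjamini-Hochberg adjusted p of Fisher's exact test over all unigenes with a read was 0.001 or less and RPKM differed at least 2-fold. From 10 to 25 DAP in Zhewan 1, 3 of the 4 unigenes were called higher and 0 lower, while 20.7% of the 74253 unigenes tested were called higher and 9.42% lower. Among unigenes with at least 1 RPKM in either library, as all 4 had, the share called higher was 38.0%. In Zhongwan 6, 2 of the 4 were called higher and 0 lower, against 9.08% higher and 16.0% lower of 74915 unigenes, or 15.8% higher at 1 RPKM or more. The median log2 ratio of the 4 unigenes was 3.91 in Zhewan 1, beside 0.69 over all unigenes tested, and 1.57 in Zhongwan 6, beside -0.24. With a coefficient of variation of 0.4 assumed between replicates (edgeR likelihood ratio test, FDR of 0.001), the antenna unigenes comp40423_c1_seq2 and comp13040_c0_seq1 were called in Zhewan 1, comp12625_c0_seq1 was not, and 0 of the 4 were called in Zhongwan 6.

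The only model with a residual degree of freedom among libraries takes the spread from the difference between the cultivars in stage change. In this edgeR quasi-likelihood fit 0% of the 42328 unigenes tested passed an adjusted p of 0.05, and 8980 of them (21.2%) had an unadjusted p under 0.05. This count depended on the setting, since the same fit without a filter on low counts called 6484 unigenes, 2 of the members among them, and limma on log2(RPKM + 1) called 4662, with 3 of the members. The unigenes comp12625_c0_seq1 (log2 stage effect 2.80, adjusted p = 0.0784) and comp13040_c0_seq1 (3.60, adjusted p = 0.107) were among the 8980. The other members were not, with adjusted p = 0.342 for comp40423_c1_seq2 (log2 effect 2.75) and 0.548 for comp12834_c0_seq1 (-0.63).

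With library totals, the stage ratio itself differed between cultivars for 3 of the 4 unigenes beyond counting error. Divided by that in Zhewan 1, the Zhongwan 6 stage ratio of comp40423_c1_seq2 was 0.0279 (exact conditional 95% interval 0.0141 to 0.0531) and that of comp13040_c0_seq1 was 0.331 (0.301 to 0.364), which became 0.0482 and 0.571 when libraries were scaled by median ratios. For comp12625_c0_seq1 it was 0.701 (0.602 to 0.816), a value that turned to 1.21 (1.04 to 1.41) with that scaling. For comp12834_c0_seq1 the interval spanned 1, at 0.943 (0.658 to 1.35), but with median-ratio scaling the value was 1.63 (1.14 to 2.33) and with TMM (trimmed mean of M values) scaling 1.65 (1.15 to 2.37). With either scaling all 4 intervals left out 1. Both antenna members thus had the smaller stage ratio in the grain pea under every scaling tried. The photosystem I unigene did so only with library totals.

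At 10 DAP the cultivars were within 2-fold of each other in the more abundant members and further apart in the others. The 10 DAP ratio of Zhongwan 6 to Zhewan 1 was 1.02 (0.883 to 1.18) for comp12625_c0_seq1 and 0.559 (0.510 to 0.613), less than a 2-fold difference, for comp13040_c0_seq1. The low-level unigenes comp40423_c1_seq2, at 3.02 (1.68 to 5.75), and comp12834_c0_seq1, at 2.55 (2.01 to 3.25), were called higher in Zhongwan 6. These 2 calls of 4, with 0 lower, stood beside 10.4% called higher and 3.07% lower of 71326 unigenes, or 19.6% higher at 1 RPKM or more. The median log2 ratio was 0.69 for the 4 unigenes and 0.53 for all tested. Neither call held with the libraries scaled by median ratios or by TMM, which lowered every 10 DAP log2 ratio by 0.40 or 0.38. Under both scalings the one call was comp13040_c0_seq1, lower in Zhongwan 6.

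At 25 DAP both antenna unigenes were lower in the grain pea. The 25 DAP ratio of Zhongwan 6 to Zhewan 1 was 0.0843 (0.0666 to 0.105) for comp40423_c1_seq2, which is 11.9-fold (9.48 to 15.0) lower, and 0.185 (0.180 to 0.190) for comp13040_c0_seq1, which is 5.41-fold (5.27 to 5.55) lower. The photosystem I unigene comp12625_c0_seq1 had a ratio of 0.714 (0.681 to 0.749), under 2-fold and not called. The reaction center unigene comp12834_c0_seq1 lay on the other side, 2.40-fold (1.86 to 3.14) higher in Zhongwan 6, and was called. Calls for 1 unigene higher and 2 lower compare with 4.93% higher and 12.3% lower of 72654 unigenes, and with 8.57% higher and 21.4% lower at 1 RPKM or more. The median log2 ratio was -1.46 for the 4 unigenes and -0.42 for all tested. With an assumed coefficient of variation of 0.2 the call of comp12834_c0_seq1 was lost, and with 0.4 all 3 were. The comparisons share libraries, so a level in one library enters both a stage ratio and a cultivar ratio.

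**Figure D2:**
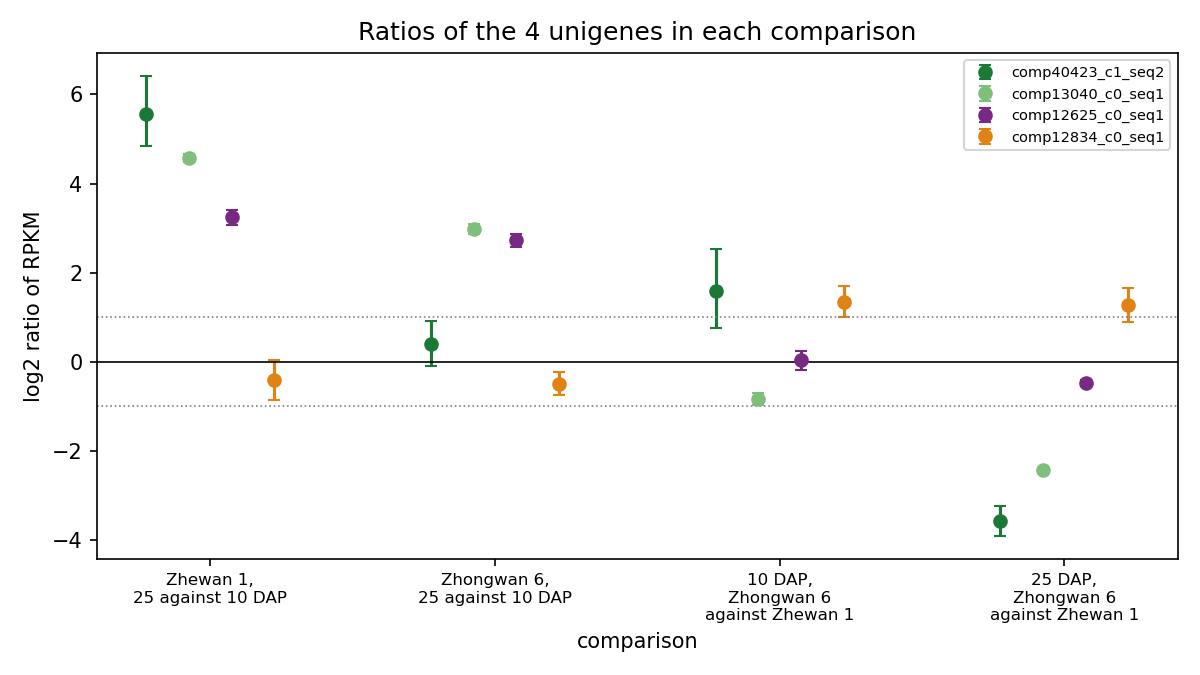
Log2 ratio of RPKM of the 4 unigenes in each of the 4 comparisons; points are ratios between 2 libraries, bars are exact 95% counting intervals and dotted lines mark a 2-fold difference. At 25 DAP the points spread from -3.57 for comp40423_c1_seq2 to 1.26 for comp12834_c0_seq1.

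The order of the levels per length was the same in 3 libraries, with comp13040_c0_seq1 first, then comp12625_c0_seq1, comp12834_c0_seq1 and comp40423_c1_seq2. At 25 DAP in Zhewan 1 the last 2 changed places. The highest exceeded the lowest RPKM 41.4-fold and 423-fold in Zhewan 1 at 10 and 25 DAP, and 7.67-fold and 45.6-fold in Zhongwan 6. The neighbours comp13040_c0_seq1 and comp12625_c0_seq1 were close in Zhongwan 6, with an RPKM ratio of 1.02 at 10 DAP and 1.21 at 25 DAP, and further apart in Zhewan 1, with 1.85 and 4.68. At 10 DAP in Zhongwan 6 their counting intervals overlapped, as did those of comp12834_c0_seq1 (2.36 to 3.05 RPKM) and comp40423_c1_seq2 (1.54 to 2.38 RPKM) at 25 DAP in the same cultivar.

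The unigene comp40423_c1_seq2 was 1 of 5 sequences of a Trinity component, a group of related assembled sequences that can be isoforms, alleles or family members of a gene, and reads may be split among them or counted on more than 1. It held 0.464% and 1.17% of the component's reads in Zhewan 1 at 10 and 25 DAP, and 1.44% and 0.368% in Zhongwan 6. Most reads lay on comp40423_c1_seq4, comp40423_c1_seq6 and comp40423_c1_seq7, so the member is a minor sequence of its component. The sequence comp40423_c1_seq4 (1056 bp) took 43.4% and 43.6% of the reads in Zhewan 1 but 11.3% and 25.2% in Zhongwan 6. The share of comp40423_c1_seq6 (1214 bp) was 29.2% and 28.2% in Zhewan 1 and 45.2% and 38.9% in Zhongwan 6. Sequences 6 and 7 kept a read ratio of 1.10 in all 4 libraries, whereas the read ratio of comp40423_c1_seq4 to comp40423_c1_seq6 was 1.49 and 1.55 in Zhewan 1 and 0.25 and 0.648 in Zhongwan 6. The split among sequences thus differed by cultivar at both stages. At 10 DAP comp40423_c1_seq4 was lower in Zhongwan 6 (ratio 0.252, 0.226 to 0.281), while comp40423_c1_seq6 had a ratio of 1.5 (1.39 to 1.63).

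**Figure D3:**
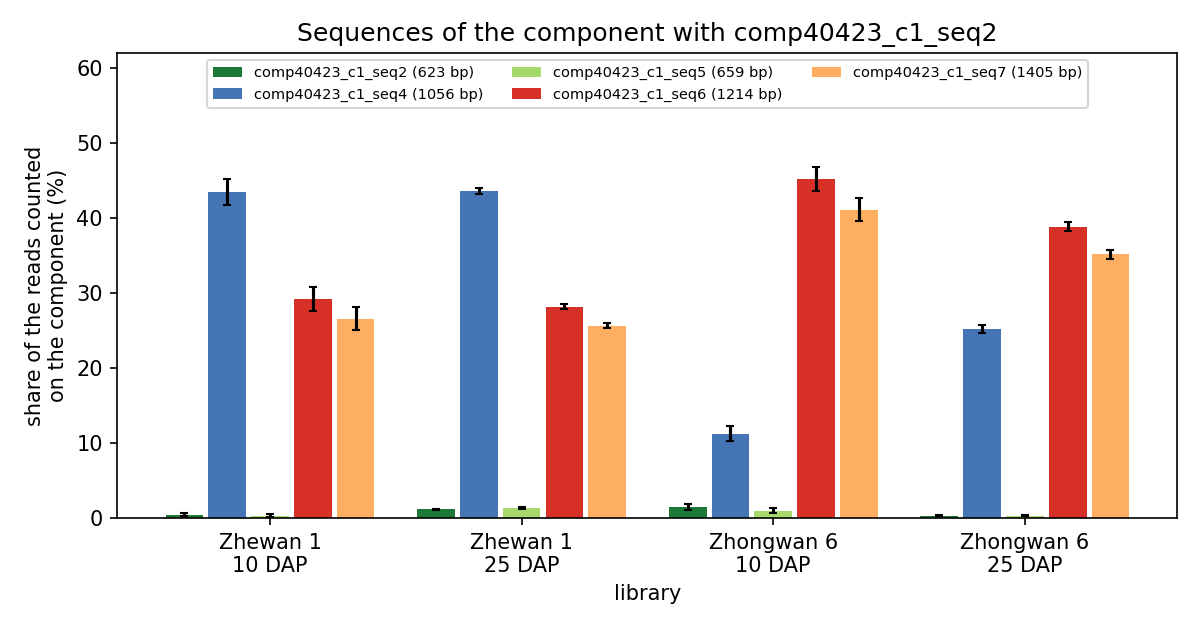
Share (%) of the reads counted on the component comp40423_c1 that lay on each of its 5 sequences, in each library; bars are single libraries and error bars are exact 95% binomial intervals. The bar of comp40423_c1_seq4 falls from 43.4% in Zhewan 1 to 11.3% in Zhongwan 6 at 10 DAP, and comp40423_c1_seq2 stays at or under 1.44%.

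Reads summed over the component were 3231 and 67675 in Zhewan 1 at 10 and 25 DAP, and 3810 and 23115 in Zhongwan 6. A read counted on more than 1 sequence enters this sum more than once, so the intervals on it can be too narrow. On this sum the stage ratio was 18.8 (18.1 to 19.5) in Zhewan 1 and 5.21 (5.03 to 5.39) in Zhongwan 6, so the component was called higher at 25 DAP in both cultivars, unlike its minor sequence. The 10 DAP ratio was 0.970 (0.926 to 1.02) and the 25 DAP ratio 0.269 (0.265 to 0.273). The stage ratio in Zhongwan 6 over that in Zhewan 1 was 0.277 (0.264 to 0.291), close in size to the 0.331 of comp13040_c0_seq1. The other 3 unigenes were the only sequence of their component. Sequences of comp40423_c2, another component of the comp40423 cluster, were chosen after their values were seen. By stage comp40423_c2_seq1 had ratios of 6.21 (5.97 to 6.46) in Zhewan 1 and 13.7 (12.6 to 14.9) in Zhongwan 6. For comp40423_c2_seq6 they were 14.3 (13.4 to 15.2) and 5.19 (4.89 to 5.51). The smaller stage ratio in Zhongwan 6 thus did not hold for every sequence of the cluster.

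Other unigenes of the pathway were taken from lists made by annotation, also with earlier results of these data known. The lists drew only on the 1998 annotation rows that could be read, so they do not cover the whole pathway. Of 10 further photosystem and light harvesting unigenes listed, 5 were in the table and the rest were not analysed here. The 5 were annotated as photosystem II reaction center protein A or B, and none reached 1 RPKM in any library. As for comp12834_c0_seq1, a level of a plastid mRNA in oligo(dT)-selected mRNA is not a measure of its total level. In Zhewan 1, 2 of them were called higher at 25 DAP, beside 20.7% of all unigenes, and 0 were called in the other 3 comparisons. There the shares of all unigenes called were small too. By stage in Zhongwan 6 they were 9.08% higher and 16.0% lower. In Zhongwan 6 against Zhewan 1 they were 10.4% and 3.07% at 10 DAP, and 4.93% and 12.3% at 25 DAP. Their median log2 stage ratio there was 0.47, beside 0.69 over all. Both calls, comp11161_c0_seq1 (15 and 67 reads, stage ratio 4.01, 2.27 to 7.56) and comp11284_c0_seq2 (10 and 67 reads, 6.01, 3.07 to 13.1), are annotated as reaction center protein B and were singled out after their values were seen.

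Of 10 unigenes listed for electron transfer, ATP synthesis and carbon fixation, 4 were in the table and 3 reached 1 RPKM. In both cultivars 3 of the 4 were called higher at 25 DAP and 0 lower. Of all unigenes tested, 20.7% were called higher by stage in Zhewan 1 and 9.08% in Zhongwan 6, or 38.0% and 15.8% at 1 RPKM or more. Those 3 are the ones that reached 1 RPKM. Of them, comp10335_c0_seq1 did so at 25 DAP only, so the filter favoured its call. Between cultivars 0 were called. Of all unigenes, 10.4% were called higher and 3.07% lower in Zhongwan 6 at 10 DAP, and 4.93% and 12.3% at 25 DAP. For the 4 in the table the median log2 stage ratio was 3.02 and 3.03, beside 0.69 and -0.24 over all unigenes tested. The ferredoxin-like unigene comp12767_c0_seq1, of a family of iron-sulfur electron carriers, had 4.06 and 139 RPKM in Zhewan 1 and 5.08 and 79.5 RPKM in Zhongwan 6, or stage ratios of 34.3 (29.1 to 40.6) and 15.6 (13.7 to 18.0). The ATP synthase protein I-related unigene comp13055_c0_seq1 had stage ratios of 3.07 (2.62 to 3.60) and 4.29 (3.74 to 4.94). A second ferredoxin-like unigene, comp10335_c0_seq1, rose from 1 to 24 reads in Zhewan 1 and from 1 to 32 reads in Zhongwan 6, with stage ratios of 21.5 (3.51 to 886) and 27.5 (4.59 to 1118). The fourth had at most 3 reads in a library.

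Of 10 unigenes listed for plastid protein import, plastid gene expression, tetrapyrrole synthesis and plastid metabolism, 8 were in the table and all 8 reached 1 RPKM. In Zhewan 1, 4 were called higher and 0 lower at 25 DAP, and in Zhongwan 6, 1 higher and 3 lower. The calls higher stood beside 20.7% and 9.08% of all unigenes tested. Among unigenes with at least 1 RPKM in either library compared, the shares were 38.0% and 15.8%. Some of the 8 reached 1 RPKM only in a library outside the comparison, so those 2 shares rest on an unlike base. The median log2 stage ratio of the 8 was 1.07 and 0.57. The thiazole biosynthetic enzyme unigene comp12347_c0_seq1, of thiamine synthesis, was called higher in both, with stage ratios of 25.6 (19.8 to 33.7) and 48.2 (24.2 to 112). The uroporphyrinogen-III synthase unigene comp12649_c0_seq1, whose product acts in the tetrapyrrole pathway that leads to chlorophyll and heme, had 4 and 511 reads in Zhewan 1, a ratio of 115 (44.5 to 422), and 0 and 12 reads in Zhongwan 6. At 25 DAP it was among 3 of the list called lower in Zhongwan 6, with a ratio of 0.0185 (0.00949 to 0.0326), and 0 were called higher. Over all unigenes 12.3% were called lower and 4.93% higher at 25 DAP, or 21.4% and 8.57% at 1 RPKM or more. The 3 called lower by stage in Zhongwan 6 were comp12378_c0_seq1 (an outer envelope translocon subunit, 100 and 54 reads), comp11826_c0_seq1 (chloroplast ribosomal protein S15, 24 and 0 reads) and comp11638_c0_seq1 (a plastid RNA polymerase sigma subunit, 65 and 2 reads). Of all unigenes, 16.0% were called lower by stage in Zhongwan 6. If comp11826_c0_seq1 comes from a plastid gene, its level in oligo(dT)-selected mRNA is not a measure of its total level either. At 10 DAP 2 were called higher in Zhongwan 6 and 1 lower. Beside them, 10.4% of all unigenes were called higher and 3.07% lower, or 19.6% higher at 1 RPKM or more. With median-ratio or TMM scaling the calls were 3 higher and 0 lower by stage in Zhewan 1 and 2 and 2 in Zhongwan 6. Between cultivars they were 1 higher and 1 lower in Zhongwan 6 at 10 DAP, and 0 and 2 at 25 DAP.

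**Figure D4:**
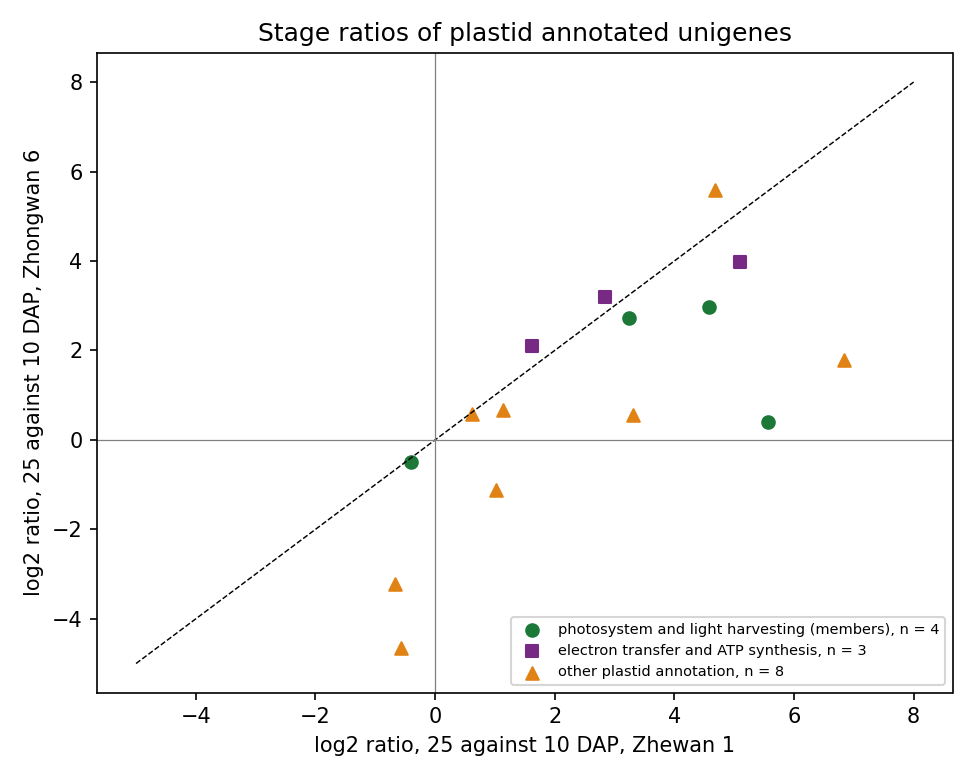
Log2 stage ratio (25 against 10 DAP) in Zhongwan 6 against that in Zhewan 1 for the unigenes of 3 lists that reached 1 RPKM in a library; counts under 3 reads are set to 3, and the dashed line marks equal ratios. The member comp40423_c1_seq2 (5.57 and 0.41) lies far below the line, and comp12834_c0_seq1 (-0.41 and -0.49) lies close to it.

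The 3 unigenes nearest in shape to each member were taken by Euclidean distance in centred log2 RPKM over the 4 libraries. Candidates were 267 unigenes with a text in the annotation rows that could be read and at least 1 RPKM in all 4 libraries. Unigenes outside this set, such as comp40423_c1_seq5, under 1 RPKM at 10 DAP in both cultivars, may lie nearer. Nearest to comp40423_c1_seq2 were a thioredoxin family unigene (distance 1.01), an htpG chaperone unigene (1.63) and the member comp13040_c0_seq1 (2.05). Nearest to comp13040_c0_seq1 were annexin 8 (0.892), an HSP20-like chaperone (1.47) and the ferredoxin-like comp12767_c0_seq1 (1.60). The photosystem I unigene comp12625_c0_seq1 was nearest to the same HSP20-like chaperone (0.295), a Sec61-beta unigene (0.517) and ADP-ribosylation factor A1F (0.597). The reaction center unigene comp12834_c0_seq1 was nearest to beta-ureidopropionase (0.637), an oleosin (0.657) and a membrane-anchored ubiquitin-fold protein (0.699). With 4 libraries, such distances describe the shape of these values only.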

How the data were processed

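Seeds of Zhewan 1 and Zhongwan 6 at 10 and 25 DAP gave 1 RNA-Seq library each. The authors assembled the pooled reads with Trinity, mapped the reads back with Bowtie 0.12.8 and deposited a raw read count per unigene. They also deposited RPKM, the count per kilobase of unigene scaled to the library's counted reads, which recomputed from the counts in all but 2 of 309076 entries. Annotation came from the readable rows of the study's annotation table. No sequence or coordinate was used.

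With 1 library per group, unigenes were tested by Fisher's exact test (two-sided) applied to counts, with Benjamini-Hochberg adjustment (FDR of 0.001 or less, at least 2-fold in RPKM), which compares 2 libraries. Ratios have exact 95% Clopper-Pearson intervals, from SciPy 1.17.1. edgeR 4.0.16 (TMM, filterByExpr, cultivar plus stage, adjusted p under 0.05) gave the stage effect over both cultivars, and limma 3.58.1 was an alternative. Scripts were tested on simulated data. Unigenes named were the members, listed unigenes of at least 1 RPKM in a library, sequences of a member's component and the 3 nearest unigenes per member; others are named as chosen after their values were seen. The members and lists were chosen with earlier results of these data known.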

Additional observations from a re-analysis of the deposited data

Results flagged for a closer look

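The stage ratio (25 against 10 DAP) in Zhongwan 6 differed from that in Zhewan 1 for 3 unigenes, since the exact 95% interval of the ratio of stage ratios left out 1. That ratio was 0.0279 for comp40423_c1_seq2, 0.331 for comp13040_c0_seq1 and 0.701 for comp12625_c0_seq1, with 1 library per cultivar and stage and counting error only. These values hold for scaling by library totals. With median-ratio scaling they were 0.0482, 0.571 and 1.21 (1.04 to 1.41), so that of comp12625_c0_seq1 turned, and the interval of comp12834_c0_seq1 (1.63, 1.14 to 2.33) also left out 1.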

How the results depend on the processing

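Stage calls in Zhewan 1 stayed at 3 unigenes under every alternative tried except an assumed coefficient of variation of 0.4 (edgeR), with 2. With that setting the calls in Zhongwan 6 by stage and at 25 DAP fell to 0. At 10 DAP the 2 calls, both higher in Zhongwan 6, were lost with median-ratio or TMM scaling, where 1 other, comp13040_c0_seq1, was called lower. With component sums 1 call was left, that of the component of comp12834_c0_seq1. With a 4-fold threshold or an assumed coefficient of variation of 0.2 or 0.4 the calls fell to 0. The 10 DAP log2 ratio of comp40423_c1_seq2 turned to -0.043 with component sums, and that of comp12625_c0_seq1 to -0.37 with median-ratio and -0.35 with TMM scaling. The log2 ratio of stage ratios turned to 0.28 and 0.30 for comp12625_c0_seq1 and to 0.70 and 0.72 for comp12834_c0_seq1 with median-ratio and TMM scaling. These scalings shifted every log2 stage ratio by -0.55 in Zhewan 1 and by 0.23 or 0.26 in Zhongwan 6, and every log2 ratio at 25 DAP by 0.39 or 0.43. The stage effect over both cultivars, passed by 0 members with edgeR, was passed by 2 without a filter (6484 unigenes in all) and by 3 with limma on log2(RPKM + 1) (4662 in all). The causes of these changes were not tested. Low counts, down to 15 reads, limit the ratios of comp40423_c1_seq2. The labels give no replicate numbers to use as a block, and 1 library per group left no replicate to leave out.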
